A study of Mus musculus with 15 samples.

Results

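miR-192, miR-194 and miR-215 are microRNAs made from a pair of small genomic clusters, and 3 of their mature forms were measured on the arrays of this series. The members were all mouse entries of the array named miR-192, miR-194 or miR-215, with either arm and with or without a copy number. The names matched 3 of the 696 mouse miRNAs on the array, which were mmu-miR-192-5p, mmu-miR-194-5p and mmu-miR-215-5p, written without the species prefix from here on. Other arms of the same hairpins were not analysed here. The arrays came from the livers of 15 male B6C57/J mice in 3 diet groups of 5, with 1 array per mouse and diets begun at 1 year of age. SD mice ate the AIN-93G standard diet ad libitum, CR mice the same diet under 40% caloric restriction, and Met mice the ad libitum diet with 0.1% w/w metformin, a drug for type 2 diabetes. The study asked how metformin and caloric restriction, which it related to DICER1, the enzyme that cuts miRNA hairpins, changed liver miRNAs. The labels give no age at which livers were taken.

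Both clusters place a copy of miR-194 beside a second miRNA, either miR-192 or miR-215. These miRNAs are known from liver, kidney and intestinal epithelium, where hepatocyte nuclear factors drive their transcription, and the tumor suppressor p53 can induce them. A miRNA finds its target mRNAs mainly through its seed, the bases 2 to 8 from the 5′ end, so miRNAs with the same seed share many predicted targets. The mature sequences below are from RefSeq, 5′ to 3′, with the seed in capitals, and show which members share one.

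miR-192-5p: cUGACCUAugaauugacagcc
miR-215-5p: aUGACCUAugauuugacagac
miR-194-5p: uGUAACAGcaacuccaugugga

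miR-192-5p and miR-215-5p had the same seed and were identical at 18 of 21 bases. Counted from the 5′ end, with miR-192-5p first, their 3 differences were C1A, A12U and C20A, all outside the seed. Among 1679 mature mouse miRNAs of the RefSeq table, only these 2 had the seed UGACCUA, and only miR-194-5p had GUAACAG.

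In mouse assembly GRCm38.p6, Mir194-2 (chr19:6264643-6264728) and Mir192 (chr19:6264844-6264932) lay on the plus strand, 115 bases apart, between the genes Atg2a and Gm14963. Mir194-1 (chr1:185313319-185313385) and Mir215 (chr1:185313581-185313692) also lay on the plus strand, 195 bases apart, inside the bounds of Iars2, a gene of the minus strand. The 4 hairpins are given below because the same mature miR-194-5p is cut from 1 hairpin of each cluster. Capitals mark the mature 5p miRNA.

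Mir194-2: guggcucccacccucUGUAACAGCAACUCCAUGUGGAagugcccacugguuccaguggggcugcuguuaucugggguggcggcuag
Mir192: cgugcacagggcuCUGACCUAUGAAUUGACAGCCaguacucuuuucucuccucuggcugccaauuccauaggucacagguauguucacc
Mir194-1: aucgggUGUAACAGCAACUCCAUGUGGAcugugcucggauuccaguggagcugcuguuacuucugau
Mir215: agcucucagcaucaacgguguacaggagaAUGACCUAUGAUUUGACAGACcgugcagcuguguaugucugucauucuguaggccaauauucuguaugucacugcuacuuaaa

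An array of mature miRNAs therefore reads miR-192-5p from 1 cluster, miR-215-5p from the other, and miR-194-5p from both without telling them apart. Mature coordinates were chr19:6264857-6264877 for miR-192-5p and chr1:185313610-185313630 for miR-215-5p. For miR-194-5p they were chr19:6264658-6264679 and chr1:185313325-185313346.

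Values are z-scores. The median signal of a spot, as its natural log, was centered on the average spot of its array and expressed in standard deviations of that array's spots. A z-score of 0 is the average spot, and a shift common to all spots of an array is removed. Each member had 2 probes with 10 spots each per array. The arrays lay on 2 slides, with all SD mice and Met mice 1 to 3 on slide 1 and all CR mice and Met mice 4 and 5 on slide 2. No slide held both CR and SD arrays, so CR and SD could be compared across slides only through the Met mice, in a fit with the slide as a block, while slide 2 allowed CR to be set against Met mice 4 and 5 directly. The scanner software detected 170 to 205 miRNAs per SD array, 151 to 198 per CR array and 182 to 191 per Met array. The arrays of CR mice 2 and 3 stood apart, with the lowest counts of the 15 arrays (167 and 151). RNA quality values for single livers are not given in the sources used here. The labelled tissue was checked on miR-122-5p, the main miRNA of hepatocytes, which ranked 2nd or 3rd of 696 miRNAs on each of the 15 arrays.

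miR-192-5p and miR-194-5p were detected on all 15 arrays, and both were lower in livers of CR mice than in those of SD or Met mice. The drop was larger for miR-192-5p than for its cluster neighbor miR-194-5p. It was deep in CR mice 2 and 3, intermediate in CR mouse 4 and small or absent in CR mice 1 and 5. miR-215-5p, with the seed of miR-192-5p, was not detected in any liver. No member passed the test between Met and SD.

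The z-score of miR-192-5p in SD mice 1 to 5 was 2.85, 2.96, 3.27, 2.94 and 3.14. In CR mice 1 to 5 it was 2.91, 1.23, 1.36, 2.43 and 2.79. In Met mice 1 to 5 it was 3.07, 3.06, 3.21, 3.05 and 3.21. All 5 CR mice lay below all 5 Met mice, whereas CR mouse 1 lay within the range of SD. The groups averaged 3.03 ± 0.169 in SD, 2.14 ± 0.799 in CR and 3.12 ± 0.0825 in Met (mean ± standard deviation, n = 5).

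For miR-194-5p, the z-scores of SD mice 1 to 5 were 2.35, 2.42, 2.57, 2.47 and 2.65. Those of CR mice 1 to 5 were 2.53, 1.57, 1.36, 2.10 and 2.35, and those of Met mice 1 to 5 were 2.54, 2.53, 2.51, 2.60 and 2.71. CR mouse 1 lay inside the ranges of both other groups, CR mouse 5 stood at the lower edge of SD, and CR mice 2, 3 and 4 lay below every SD and Met mouse. The means were 2.49 ± 0.119 in SD, 1.98 ± 0.500 in CR and 2.58 ± 0.0773 in Met (mean ± standard deviation, n = 5).

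**Figure D1:**
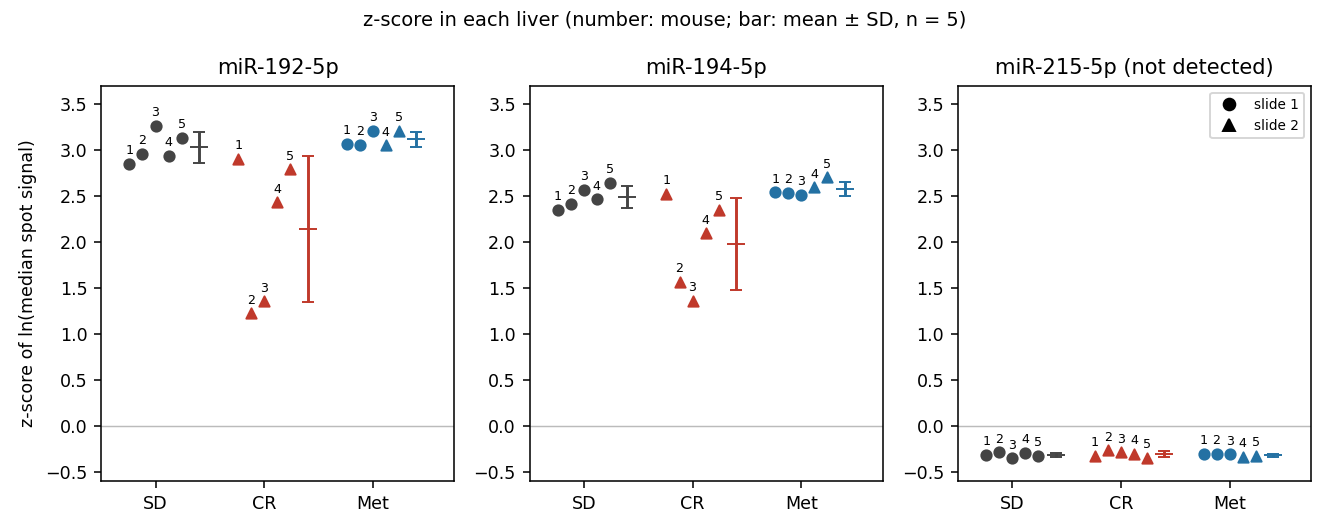
z-score of miR-192-5p, miR-194-5p and miR-215-5p (vertical axis, the same in all panels) in each liver, by diet, with the mouse number beside each point, the slide as its shape, and the mean ± standard deviation of 5 mice as a bar. CR mice 2 and 3 lie far below the other livers for miR-192-5p (1.23 and 1.36) and miR-194-5p (1.57 and 1.36), while miR-215-5p stays near the level of empty spots in all groups.

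The criteria were the limits of the study's methods applied to limma, and asked for an unadjusted p of at most 0.05, a Benjamini-Hochberg adjusted p of at most 0.3 over 178 tested miRNAs and an absolute Z ratio of at least 1.5. The Z ratio divides a miRNA's mean difference in z-score by the standard deviation of such differences across all 696 miRNAs. Between CR and SD, both tested members met the criteria and were lower in CR, beside 14.6% (26 of 178) of all tested miRNAs. The difference was -0.887 in z-score for miR-192-5p (95% interval -1.47 to -0.307, Z ratio -5.33, limma adjusted p = 0.0257). It was -0.508 for miR-194-5p (95% interval -0.890 to -0.125, Z ratio -3.05, limma adjusted p = 0.0440). By Z ratio, miR-192-5p was the 6th lowest and miR-194-5p the 16th lowest of 178.

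Between CR and Met, both again met the criteria and were lower in CR, beside 16.3% (29 of 178) of all tested miRNAs. The difference of miR-192-5p was -0.977 (95% interval -1.56 to -0.397, Z ratio -6.30, limma adjusted p = 0.0258), and that of miR-194-5p was -0.596 (95% interval -0.979 to -0.213, Z ratio -3.84, limma adjusted p = 0.0262). Here miR-192-5p had the 3rd lowest and miR-194-5p the 12th lowest Z ratio of 178. Groups without overlap, with CR lower, were found for miR-192-5p and in all for 8.99% of the tested miRNAs. Both comparisons share the CR mice, so they do not stand for separate experiments. The fit used the spread of all 3 diets. With only the 2 groups compared in the fit, both members still met the criteria, with wider intervals. Against SD these were -1.57 to -0.203 for miR-192-5p (limma adjusted p = 0.0734) and -0.964 to -0.0511 for miR-194-5p (limma adjusted p = 0.100). Against Met the limma adjusted p was 0.0574 for miR-192-5p and 0.0597 for miR-194-5p.

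Some of these calls were lost when slide, or the livers of CR mice 2 and 3, were taken into account, although with the slide as a block the differences were not smaller. With the slide as a block, neither member met the criteria between CR and SD, with differences of -0.903 for miR-192-5p (limma adjusted p = 0.272) and -0.628 for miR-194-5p (limma adjusted p = 0.257). Between CR and Met, both still met them with the slide as a block, at -0.987 (Z ratio -5.90) and -0.668 (Z ratio -3.99), each with a limma adjusted p of 0.0812. Met mice 4 and 5 on slide 2 (3.05 and 3.21 for miR-192-5p) lay within the range of Met mice 1 to 3 on slide 1 (3.06 to 3.21) or just below it. For miR-194-5p, Met mice 4 and 5 (2.60 and 2.71) both lay above Met mice 1 to 3 (2.51 to 2.54). Within slide 2 alone, the same differences came from CR mice against Met mice 4 and 5, and neither met the criteria (limma adjusted p = 0.228 for both). Without CR mice 2 and 3, miR-192-5p still met the criteria against SD, with a difference of -0.319 (limma adjusted p = 0.116), and against Met, with -0.409 (limma adjusted p = 0.0788). miR-194-5p then met them against Met (-0.252, limma adjusted p = 0.191) and not against SD (-0.164, limma adjusted p = 0.335).

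Signal after the background subtraction of the scanner software gave the size of the drop on a linear scale, without scaling between arrays. Relative to the SD mean, the signal of miR-192-5p was 15.5% in CR mouse 2, 16.1% in CR mouse 3, 50.1% in CR mouse 4, 81.4% in CR mouse 5 and 87.7% in CR mouse 1. The signal of miR-194-5p in the same order was 34.9%, 25.3%, 59.7%, 88.5% and 102%. In each of the 5 CR livers a smaller share of the SD level remained for miR-192-5p than for miR-194-5p. Single SD mice ranged from 83.6% to 138% of their own mean for miR-192-5p and from 84.9% to 121% for miR-194-5p, so CR mice 1 and 5 lay within or close to the SD range. In this bulk tissue, fewer cells that make a miRNA and less of it per cell cannot be told apart.

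The CR mice differed from one another far more than mice of the other diets did. The standard deviation of miR-192-5p among CR mice was the 3rd largest of 178 tested miRNAs and that of miR-194-5p the 11th largest, beside a median of 0.0849. Among SD mice they ranked 35th and 56th, and among Met mice 50th and 57th. Within the liver of CR mouse 2, the difference of miR-192-5p from the SD mean (-1.80) was the 3rd lowest of 178, and in CR mouse 3 (-1.68) the 5th lowest. In CR mice 4, 5 and 1 it ranked 8th, 15th and 27th lowest, at -0.597, -0.238 and -0.122. miR-194-5p ranked 14th, 12th, 17th and 29th lowest in CR mice 2, 3, 4 and 5, and 108th in CR mouse 1. Centering of each array removes a shift common to all its spots, so a median over miRNAs cannot show one. With it removed, the median difference over all tested miRNAs was -0.0132 in CR mouse 2 and -0.0434 in CR mouse 3. These 2 arrays also had the smallest standard deviation of ln signal over all spots (0.674 and 0.646, against 0.699 to 0.800 on the other arrays), whose part in the result was not tested.

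Both probes of each miRNA gave the same direction. Between CR and SD the probes of miR-192-5p differed by -0.915 and -0.859 in z-score, and those of miR-194-5p by -0.491 and -0.524. The software flagged 300 of 300 spots of miR-192-5p, and 300 of 300 of miR-194-5p, as well above background over the 15 arrays.

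miR-215-5p gave no such signal. The software detected it on 0 of 15 arrays, and 0 of its 300 spots were well above background. Its z-score lay between -0.350 and -0.265 over all livers, and its background-subtracted signal between -1.33 and 3.46, where that of miR-192-5p ran from 216 to 1931. It was therefore not tested, and only a level not well above background can be given for SD, CR and Met. Although its sequence differs from that of miR-192-5p by only 3 bases, its probes stayed at this level on arrays where miR-192-5p was bright.

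To ask whether the cluster neighbors moved by the same amount, the z-score of miR-194-5p was subtracted from that of miR-192-5p on each array. This gap was 0.501, 0.543, 0.699, 0.470 and 0.490 in SD mice 1 to 5 and 0.528, 0.526, 0.700, 0.457 and 0.504 in Met mice 1 to 5. In CR mice 1 to 5 it was 0.380, -0.343, -0.00764, 0.337 and 0.441. Every CR mouse lay below every SD and every Met mouse, and CR mice 2 and 3 were lowest. How many other pairs of tested miRNAs would separate the diets in this way was not counted. Probes differ in brightness, so the gap itself has no meaning as a ratio of the miRNAs and only its change between diets can be read.

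The mean gap was 0.541 ± 0.0924 in SD, 0.161 ± 0.332 in CR and 0.543 ± 0.0922 in Met (mean ± standard deviation, n = 5). The difference between CR and SD was -0.379 and that between CR and Met -0.382, each with p = 0.00794 in a two-sided exact permutation test, the smallest p that 5 against 5 mice can give. Adjusted over 9 such tests, which also set miR-192-5p and miR-194-5p against the undetected miR-215-5p, the exact permutation p was 0.0238 for both. Without CR mice 2 and 3 the differences were -0.155 and -0.157, each with an exact permutation p of 0.0357, the smallest that 3 against 5 mice can give, and an adjusted p of 0.107. Within slide 2 the gap of CR differed from that of Met mice 4 and 5 by -0.319 (exact permutation p = 0.0952, the smallest that 5 against 2 mice can give). In both of these smaller comparisons every CR mouse still had the lower gap. The gap was not fitted with the slide as a block, so its difference between CR and SD was not adjusted for slide.

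**Figure D2:**
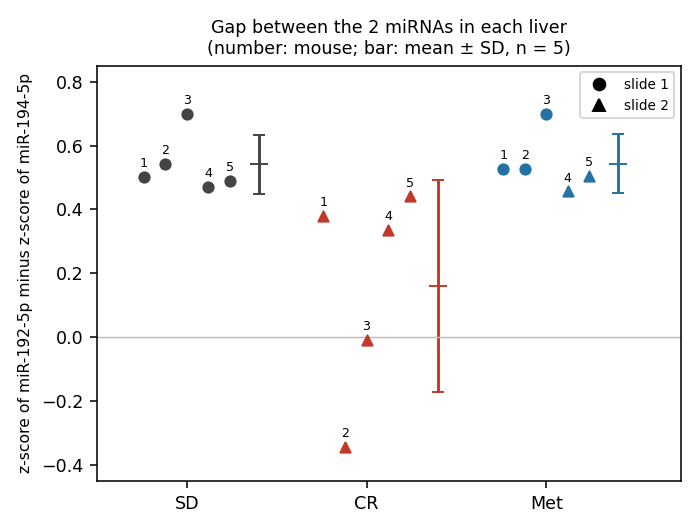
z-score of miR-192-5p minus z-score of miR-194-5p on the same array (vertical axis) for each liver, by diet, with mouse number, slide as shape, and mean ± standard deviation of 5 mice. The 5 CR livers, from -0.343 to 0.441, all lie below the SD livers (0.470 to 0.699) and the Met livers (0.457 to 0.700).

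Over the 15 arrays, which fell into a dense group of livers, CR mouse 4 and the distant pair of CR mice 2 and 3, miR-192-5p and miR-194-5p varied together. Pearson's r was 0.977 (p = 1e-05, the smallest that 100000 permutations can give) and Spearman's rho 0.846 (permutation p = 0.00011). Without CR mice 2 and 3, the arrays farthest from the median of miR-192-5p, r was 0.905 (permutation p = 8e-05) and rho 0.769 (permutation p = 0.00282) over 13 arrays. Within slide 1, with SD and Met mice only, r was 0.781 over 8 arrays (exact permutation p = 0.0224). Within slide 2 it was 0.983 over 7 arrays (exact permutation p = 0.00198). After subtraction of the group means, r was 0.957 over 15 arrays. This was the 1 relation between members that was computed, since miR-215-5p was undetected, and no adjustment was needed.

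**Figure D3:**
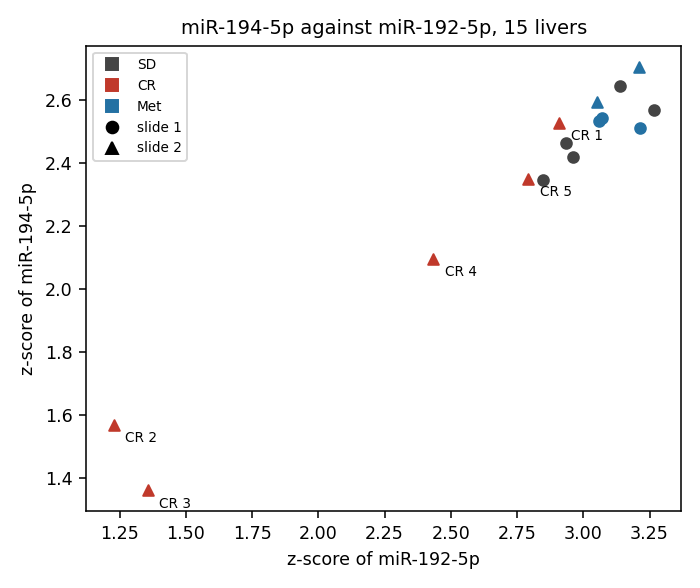
z-score of miR-194-5p (vertical axis) against that of miR-192-5p (horizontal axis) in the 15 livers, with diet as color and slide as shape. The CR livers spread along the diagonal from CR mouse 1 near the SD and Met livers down to CR mice 2 and 3.

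High correlation was not limited to these miRNAs. The points share an array and its scaling, and 28 of the 177 other tested miRNAs had r of 0.9 or more with miR-192-5p, with a median r of 0.179 and 75 negative values. For miR-194-5p these were 29 of 177, a median of 0.234 and 74 negative values. Without CR mice 2 and 3, r of 0.9 or more was left for 10 miRNAs with miR-192-5p and 5 with miR-194-5p. miR-194-5p ranked 9th among the 177 in likeness to miR-192-5p, and miR-192-5p ranked 5th in likeness to miR-194-5p.

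**Figure D4:**
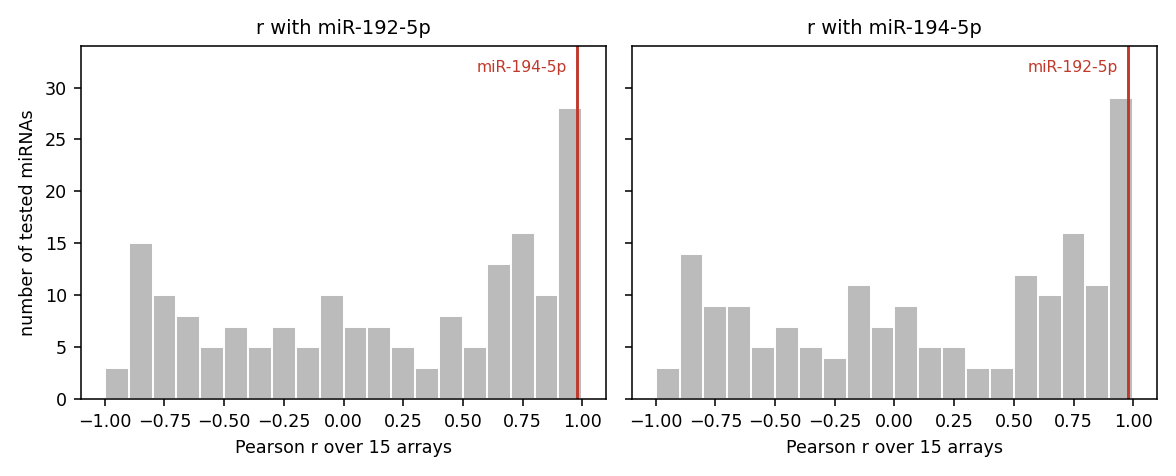
Number of tested miRNAs (vertical axis) by Pearson r of their z-score with miR-192-5p (left) or miR-194-5p (right) over 15 arrays, in bins of 0.1. The red line marks the cluster neighbor at r of 0.977, which lies in the highest bin together with the other miRNAs of r 0.9 or more.

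The 5 miRNAs most like miR-192-5p were miR-148a-3p (r = 0.990), an abundant hepatocyte miRNA, miR-15a-5p (r = 0.987), a repressor of BCL2, miR-26b-5p (r = 0.985), miR-21a-5p (r = 0.982) and miR-30e-5p (r = 0.980). Those most like miR-194-5p were miR-30c-5p (r = 0.985), miR-148a-3p (r = 0.984), miR-30b-5p (r = 0.983), miR-29c-3p (r = 0.978), a repressor of collagens, and miR-192-5p. They were chosen for this pattern and are given as a description over 15 arrays. miR-148a-3p fell to 15.5% of the SD mean signal in CR mouse 2 and 9.83% in CR mouse 3, beside 84.2% in CR mouse 1.

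In z-score, miR-122-5p did not follow the members. Its z-score was 6.34, 6.38, 6.12, 6.29 and 6.33 in CR mice 1 to 5, and in SD mice it ranged from 5.77 to 6.36. The difference between CR and SD was 0.217 and did not meet the criteria (limma adjusted p = 0.155), and its r with miR-192-5p was -0.0166 over 15 arrays. On the linear scale its background-subtracted signal was 72.4% of the SD mean in CR mouse 2, 49.6% in CR mouse 3 and 79.6% in CR mouse 4. It was 120% in CR mouse 5 and 114% in CR mouse 1, and single SD mice ranged from 79.2% to 127%. Before scaling, CR mice 2, 3 and 4 were thus below the SD mean for miR-122-5p too, though by less than for miR-192-5p.

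**Figure D5:**
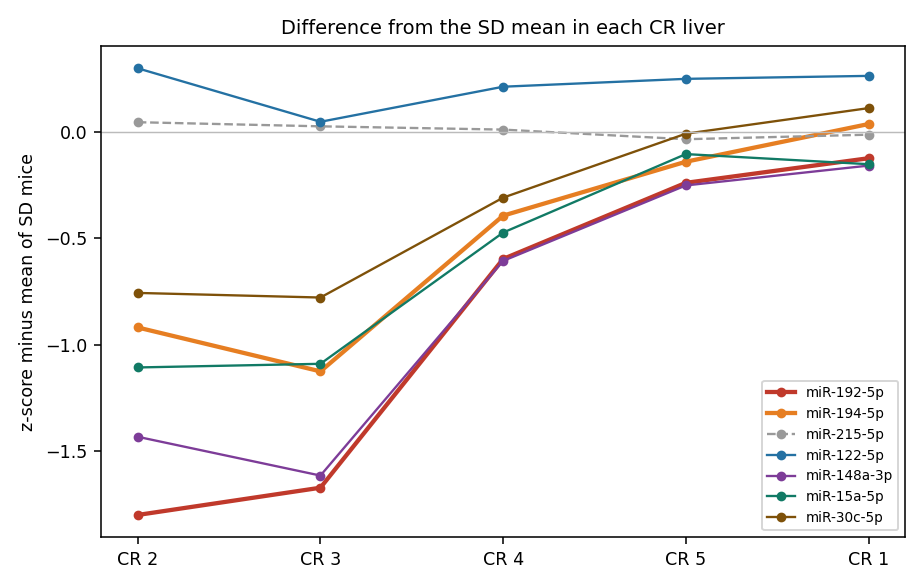
Difference of each CR liver from the SD mean in z-score (vertical axis) for the members and 4 other miRNAs, with CR mice ordered 2, 3, 4, 5 and 1 along the horizontal axis for reading only. miR-192-5p and miR-194-5p lie lowest in CR mice 2 and 3, as do miR-148a-3p, miR-15a-5p and miR-30c-5p, while miR-122-5p lies at or above the SD mean and miR-215-5p, not detected, near 0.

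Of the hepatocyte list, 5 of 6 miRNAs were tested, and 3 of them fell between CR and SD and 0 rose, where 14.6% of all tested miRNAs fell. The median difference was -0.398, beside -0.0161 over all tested miRNAs. The 3 were miR-148a-3p (-0.813, limma adjusted p = 0.0196), miR-101b-3p (-0.656, limma adjusted p = 0.0102) and miR-101a-3p (-0.398, limma adjusted p = 0.0119). Of the rest, miR-122-5p went the other way, 0.217 higher in CR, and did not meet the criteria. miR-802-5p differed by -0.165 (limma adjusted p = 0.0106) and missed the limit on the Z ratio (-0.994). The summed z-score of the list ran from 5.86 to 9.08 in CR and from 9.11 to 9.81 in SD. miR-122-5p, a part of this sum, ran from 6.12 to 6.38 in CR. Its part in the drop of miR-192-5p and miR-194-5p was not tested. Between CR and Met, the same 3 of the 5 fell, where 16.3% of all tested miRNAs did.

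Of the other p53-induced miRNAs on the list, 6 of 10 were tested. Between CR and SD, 2 of the 6 fell and 0 rose, beside the 14.6% of all tested miRNAs that fell, and the median difference was -0.193 against -0.0161 over all tested. They were miR-15a-5p (-0.585, limma adjusted p = 0.0241) and miR-16-5p (-0.437, limma adjusted p = 0.0440), which are also made without p53. miR-34a-5p, the best known p53 target among miRNAs, differed by -0.189 (limma adjusted p = 0.0317) and missed the limit on the Z ratio there (-1.14). miR-145a-5p of the same list was 0.128 higher in CR and missed it too (limma adjusted p = 0.0541, Z ratio 0.772). Between CR and Met, 3 of the 6 fell (16.3% of all tested), these 2 and miR-34a-5p, and between Met and SD 0 of the 6 did, and 0 had an unadjusted limma p of 0.05 or less.

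Between CR and SD, where 17.4% of all tested miRNAs did so in either direction, 0 of 4 tested leukocyte miRNAs, 0 of 2 endothelial, 0 of 5 stellate and mesenchymal, 0 of 2 epithelial and 0 of 1 erythrocyte miRNAs met them. By unadjusted limma p alone, at 0.05, the counts in the same order were 2, 1, 3, 1 and 0, where 41.6% (74 of 178) of all tested miRNAs passed. They were lower in CR except for 2 of the 3 stellate and mesenchymal miRNAs, miR-145a-5p and miR-214-3p, which were 0.128 and 0.0432 higher. The leukocyte miR-142-3p, endothelial miR-126-5p and epithelial miR-203-3p missed only the limit on the Z ratio (-0.975, -0.911 and -1.17). Their limma adjusted p was 0.0159, 0.0154 and 0.0119. In SD they averaged 0.0154, 0.0381 and 0.177 in z-score, where the undetected miR-215-5p averaged -0.313. Dim miRNAs thus had less room than bright ones to fall as far as that limit asks. The median differences between CR and SD were -0.129 for leukocyte, -0.250 for endothelial, -0.0458 for stellate and mesenchymal and -0.0755 for epithelial miRNAs. The erythrocyte miRNA tested, miR-451a, differed by -0.624 (Z ratio -3.75, limma adjusted p = 0.144), a larger difference in z-score than that of miR-194-5p, and the endothelial miR-126-3p by -0.348 (Z ratio -2.10, limma adjusted p = 0.156). Their part in the result for the members was not tested. Between CR and Met, where 20.8% of all tested miRNAs did so, 1 endothelial miRNA fell, miR-126-3p (-0.423, limma adjusted p = 0.0852), and 0 of the others met the criteria. The summed z-score of the leukocyte list ran from -0.663 to 0.0971 in CR and from -0.160 to 0.289 in SD. That of the erythrocyte list ran from 0.0197 to 2.04 in CR and from 1.09 to 1.92 in SD.

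Between Met and SD, 0 of the 2 tested members met the criteria, beside 1.12% (2 of 178) of all tested miRNAs, and 0 had an unadjusted limma p of 0.05 or less. The difference was 0.0905 for miR-192-5p (95% interval -0.490 to 0.671, limma adjusted p = 0.930) and 0.0884 for miR-194-5p (95% interval -0.294 to 0.471, limma adjusted p = 0.930). The ranges of Met and SD overlapped for both. These intervals use the spread of all 3 diets, and with only SD and Met mice in the fit they narrowed to -0.107 to 0.288 and -0.0718 to 0.249. The gap between the miRNAs differed by 0.00208 between Met and SD (exact permutation p = 0.960).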

How the data were processed

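Total RNA from 15 mouse livers was labeled with Cy3 and hybridized to 1-color Agilent mouse miRNA arrays, release 15.0. The authors deposited the scanner intensity of each spot, from Feature Extraction 11.5.1.1 per the file headers, with flags for detection and outliers, and without normalization between arrays. They also deposited a table of z scores (unit: score), which matched those computed here within 0.0005. z-scores of ln(median signal) were taken over all 14635 spots of an array. Outlier spots were then left out, and spots of a probe, then probes of a miRNA, were averaged. A single limma fit (limma 3.58.1, R 4.3.3) over the 15 arrays tested the 178 miRNAs that every array of at least 1 diet detected. The limits are those of the study's methods, where p comes from a pairwise z-test. Single values were tested by exact permutation with scipy 1.17.1.

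The members and lists were chosen with earlier results of these data known, and besides the members the text names the 5 miRNAs most like each and at most 3 called members per list. miR-122-5p, miR-802-5p, miR-34a-5p, miR-145a-5p, miR-214-3p, miR-142-3p, miR-126-5p, miR-203-3p, miR-451a and miR-126-3p between CR and SD fall outside that rule and were named after their values were seen. The stellate and p53-induced lists share miR-143-3p and miR-145a-5p. The number of arrays, 5 per diet, limits the precision. Alternatives covered scaling, background correction, filters, probes, the test, slide and replicate number as blocks, and single mice left out. Alternatives chosen after seeing the data were leaving out CR mice 2 and 3, keeping outlier spots, and no scaling between arrays. Simulated data were used to test the limma step. The sequences came from RefSeq tables of GRCm38.p6. The array header names another build, and no coordinates were taken from the array.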

Additional observations from a re-analysis of the deposited data

How the results depend on the processing

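Both miR-192-5p and miR-194-5p were lower in CR under every alternative run, but the number of the 2 that met the criteria depended on some. Between CR and SD it was 1 with each array set to the 75th percentile of detected probes, 1 with background-subtracted signal and 1 without CR mice 2 and 3, in each case miR-192-5p. It was 0 with the total gene signal and 0 with the slide as a block. Between CR and Met it was 1 with background-subtracted signal (miR-192-5p), 0 with the total gene signal and 0 within slide 2, and between Met and SD it was 0 throughout. With 1 mouse left out at a time, the counts stayed at 2, 2 and 0. Scaling to detected probes put the median of all tested miRNAs at 0.37 in CR against SD and 0.30 against Met on the log2 scale, background-subtracted signal put it at 0.31 and 0.18, and no scaling at -0.04 and -0.11. Relative to the first, the differences between CR and SD were -1.06 for miR-192-5p and -0.64 for miR-194-5p. The cause of these changes was not tested.

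The gap between miR-192-5p and miR-194-5p narrowed in CR under every alternative. Against SD it changed by -0.420 in log2 with quantile normalization (exact permutation, adjusted p = 0.0536) and -0.155 in z-score without CR mice 2 and 3. Against Met it changed by -0.319 within slide 2 and -0.157 without those mice. With the total gene signal, as z-scores over miRNAs and so not on the scale of the others, it changed by -0.102 against SD and -0.0997 against Met (exact permutation, adjusted p = 0.0476 for both). With 1 mouse left out it ran from -0.449 to -0.253 against SD and from -0.452 to -0.255 against Met. The near-zero change between Met and SD turned negative with the 75th percentile of detected probes (-0.0119), that of all probes (-0.0119), normexp (-0.00436), background-subtracted signal (-0.0118), total gene signal (-0.00257), outlier spots kept (-0.00715) and no scaling (-0.0119), and ran from -0.0371 to 0.0416 with 1 mouse left out. The correlation of the 2 miRNAs stayed between 0.747 and 0.985.

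The labels number the mice of each diet, and the deviations of same-numbered mice correlated between -0.562 and 0.714, so the numbers were not taken as pairs. With the replicate number as a block, 2, 2 and 0 members met the criteria, and the Z ratio between CR and SD was -5.33 for miR-192-5p and -3.05 for miR-194-5p, which changed no call. Signal over background limits what can be said of miR-215-5p, and the number of arrays, with CR on slide 2 only, limits the comparisons with CR.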
